A study of Mus musculus with 32 samples.

Results

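The combined response of Dnmt1-silenced lung endothelial cells to TNFα and IFNγ was measured by bulk RNA-seq in 8 of the 32 libraries of the series. The members were the 4 libraries labelled si-dnmt + TNF + IFN and the 4 labelled si-dnmt that received no cytokine, compared over all genes. All 8 came from Veravec, a mouse lung endothelial cell line, transfected with siRNA against Dnmt1 (DNMT1, the maintenance DNA methyltransferase) in a first round and again the next day. The labels give TNFα at 10 ng/mL or IFNγ at 1000 U/mL for 16 h and state no separate dose for the combination. Cells given control siRNA (si-control, with and without the same cytokines) and si-dnmt cells given either cytokine alone served for reference, with 4 libraries in each group. The labels call the 4 libraries of a group biological replicates but name no culture or day, so the p-values measure the spread between these libraries of a single cell line.

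TNFα binds its receptors on endothelium and activates NF-κB, which is held in the cytoplasm by IκB proteins until these are degraded. NF-κB then drives adhesion molecules, neutrophil and monocyte chemokines and its own inhibitors. IFNγ acts through JAK kinases and transcription factors of the STAT family, which bind GAS elements and induce IRF1, CIITA and the genes of antigen presentation. Many inflammatory promoters hold sites for both pathways, and endothelium exposed to both cytokines is known for displaying chemokines, adhesion molecules and peptide-loaded MHC to passing lymphocytes.

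Total counts were 21312850 to 26901175 in the si-dnmt libraries and 17362546 to 20703292 in the si-dnmt + TNF + IFN libraries. Mitochondrial transcripts took 3.27% to 4.03% of counts before and 2.13% to 2.64% after the cytokines. Dnmt1 stood at 10.3, 12.4, 6.45 and 6.53 CPM (reads scaled to the effective library size) in si-dnmt replicates 1 to 4 and at 17.3, 13.1, 5.84 and 5.78 CPM after the cytokines, against 89.1 to 211 CPM in the 8 si-control libraries of the same cytokine states. These si-dnmt groups overlapped, and the change in Dnmt1 was not called (log2 fold change 0.24 ± 0.35 (SE), adjusted p = 0.64). Within replicates 1 and 2 alone Dnmt1 was called higher (0.43, adjusted p = 0.0068), and within replicates 3 and 4 alone it stood at -0.16 (adjusted p = 0.34). Replicates 1 and 2 stood apart from replicates 3 and 4 in both groups: over the 8 libraries the first principal component (69.5% of the variance) separated the cytokine states and the second (17.3%) separated these 2 replicate sets. The labels do not say what the sets are, and the response was therefore also computed within each.

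The endothelial label was checked against markers of endothelium and of other cell types. Cdh5 (VE-cadherin) stood at 1536 to 2723 CPM and Pecam1 (CD31) at 1298 to 1829 CPM in the si-dnmt libraries. Of 26 endothelial identity genes 25 passed the filter on low counts, and Car4, the other, was at 0 in all 8 libraries. Of 18 leukocyte markers 3 passed the filter on low counts, and Ptprc (CD45) had at most 3 reads in any of the 8 libraries. Of 15 epithelial markers 4 passed, of 10 fibroblast markers 5 and of 10 mural cell markers 4, while Lum, Rgs5 and Sftpc were at 0 in all 8. The summed level was 18.9 to 78.6 CPM for the leukocyte list before and 13.2 to 20.0 CPM after the cytokines, 11.2 to 26.2 and 7.51 to 11.3 CPM for the epithelial list, 94.7 to 152 and 134 to 254 CPM for the fibroblast list, and 39.9 to 184 and 59.9 to 134 CPM for the mural list. Within these lists Dcn (a fibroblast proteoglycan) and Coro1a rose, Pi16, Lyz2 (lysozyme), Krt18 and Cldn7 fell, and no mural marker was called. Pdgfrb, a mural marker, was called lower with the replicate number as a block (log2 fold change -0.93, adjusted p = 0.018), although it stood at 0.13 within replicates 1 and 2 alone. Of the lymphatic endothelial markers, Lyve1 (268 and 291 CPM on average) was not called and Pdpn was called higher (log2 fold change 0.47, adjusted p = 0.041). Mmrn1, another of them, was at 131, 106, 5.22 and 9.14 CPM before and at 15.8, 19.9, 1.73 and 1.09 CPM after the cytokines. It was not called by the main test (log2 fold change -2.71 ± 1.39, adjusted p = 0.13) but was called lower with the replicate number as a block (-2.62, adjusted p = 1.2e-10). The calls of Pdpn, Krt18 and Cldn7 were not stable: Pdpn stood at 0.11 and Cldn7 at -0.64 within replicates 1 and 2 alone (adjusted p = 0.36 and 0.21). Without a si-dnmt replicate 3 or 4 or one of several treated libraries, Pdpn and Krt18 were lost, with adjusted p up to 0.12 for both.

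Promoter windows of 5 genes are shown because each holds a match to a binding motif of the factors named above and belongs to a gene described below. They run from 250 bases before to 50 bases after the start and come from RefSeq on build GRCm38.p6. Of the 141 named genes 90 had such a window, and 21 of these 90 held a match to any of the motifs sought. GAS was held by 11 of them, ISRE by 11 and κB by 3. Matches were sought on both strands for GAS (TTCNNNGAA), for the interferon-stimulated response element ISRE (GAAA, any 2 bases, GAAA), which STAT and IRF complexes bind, and for κB (GGGA, any base, TTTCC). Capitals mark the matches, and no 2 of them overlapped in these windows. The Irf1 window (chr11:53769764-53770063, plus strand) holds a GAS match 90 bases before the start and the Icam1 window (chr9:21015690-21015989, plus strand) one at 42 bases. The Cxcl10 window (chr5:92348840-92349139, minus strand) holds an ISRE match at 213 bases. The Gm12250 window (chr11:58183593-58183892, plus strand) holds ISRE matches at 91 and 46 bases and a GAS match at 61. The Nfkbia window (chr12:55492598-55492897, minus strand) holds a κB match at 29 bases.
Irf1: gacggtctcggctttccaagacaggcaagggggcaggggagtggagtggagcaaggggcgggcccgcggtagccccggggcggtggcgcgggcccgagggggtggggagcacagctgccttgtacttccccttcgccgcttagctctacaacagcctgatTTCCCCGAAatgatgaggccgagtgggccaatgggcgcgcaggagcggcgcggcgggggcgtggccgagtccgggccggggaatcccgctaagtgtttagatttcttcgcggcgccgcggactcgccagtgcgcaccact
Icam1: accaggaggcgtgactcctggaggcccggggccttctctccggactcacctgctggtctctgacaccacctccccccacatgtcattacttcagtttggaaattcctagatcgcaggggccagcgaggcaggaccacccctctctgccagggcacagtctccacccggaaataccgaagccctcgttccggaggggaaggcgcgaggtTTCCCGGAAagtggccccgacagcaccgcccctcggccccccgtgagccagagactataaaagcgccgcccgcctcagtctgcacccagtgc
Cxcl10: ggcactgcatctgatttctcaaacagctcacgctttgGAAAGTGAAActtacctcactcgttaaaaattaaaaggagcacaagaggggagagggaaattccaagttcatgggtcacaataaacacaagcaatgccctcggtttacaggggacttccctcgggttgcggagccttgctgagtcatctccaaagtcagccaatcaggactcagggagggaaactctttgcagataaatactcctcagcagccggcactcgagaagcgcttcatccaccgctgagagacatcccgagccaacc
Gm12250: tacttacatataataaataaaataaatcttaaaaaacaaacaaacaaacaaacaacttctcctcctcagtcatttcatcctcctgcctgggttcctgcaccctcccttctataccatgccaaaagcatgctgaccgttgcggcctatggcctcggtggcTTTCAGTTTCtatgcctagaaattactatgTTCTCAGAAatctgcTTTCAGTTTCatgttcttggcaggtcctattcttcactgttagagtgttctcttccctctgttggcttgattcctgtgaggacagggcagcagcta
Nfkbia: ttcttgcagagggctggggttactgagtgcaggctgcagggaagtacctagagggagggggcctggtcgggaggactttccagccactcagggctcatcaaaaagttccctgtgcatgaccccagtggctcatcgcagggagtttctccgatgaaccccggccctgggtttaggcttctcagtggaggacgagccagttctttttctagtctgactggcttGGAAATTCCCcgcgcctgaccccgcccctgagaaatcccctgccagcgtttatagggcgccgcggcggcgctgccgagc

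Across the whole RefSeq table, 8.3% of 32851 windows held GAS, 3.44% held ISRE and 0.411% held κB. Among 13451 windows of the genes tested the shares were 6.97%, 3.28% and 0.468%. Among 273 windows of genes called at least 8-fold higher, of which 233 of 367 genes had a window, the shares were 11.7%, 17.9% and 1.83% (5 windows for κB). Among 139 windows of genes called at least 8-fold lower they were 5.04%, 5.04% and 0.0%. A match is a description of the letters in the window and no test was run on the shares.

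The combined cytokines changed a large part of the transcriptome. Of 15254 genes tested, 3252 rose and 2877 fell (edgeR quasi-likelihood test, Benjamini-Hochberg adjusted p under 0.05), which is 21.3% and 18.9% of the genes and 40.2% in all. The counts of list members given below are to be read against these shares. At least 2-fold changes were found for 1356 higher genes (8.89%) and 1066 lower genes (6.99%). Large changes were mostly rises: 367 genes rose and 152 fell at least 8-fold, and 134 rose and 29 fell at least 32-fold. The libraries of the groups did not overlap for 3216 higher genes (21.1%) and 2746 lower genes (18.0%). Of the 6129 genes called, 6128 had the same sign in replicates 1 and 2 alone and 6122 in replicates 3 and 4 alone, and 5510 and 5268 were called there in the same direction. Those genes were called on the same libraries, so their agreement in sign was largely fixed in advance and is no independent check. With calls made separately in each set, 5361 genes were called in both in the same direction and 25 in opposite directions. With the replicate number as a block, 7879 genes were called.

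The 1356 genes called at least 2-fold higher took 4.52% to 5.48% of counts in the si-dnmt libraries and 17% to 21.6% with both cytokines. They took 8.80% to 10.7% with TNFα alone and 9.77% to 13.3% with IFNγ alone. The 1066 genes called at least 2-fold lower took 4.43% to 6.27% of counts before and 1.62% to 1.79% after. These genes were chosen by the same contrast, so the shares describe its size and test nothing.

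**Figure D1:**
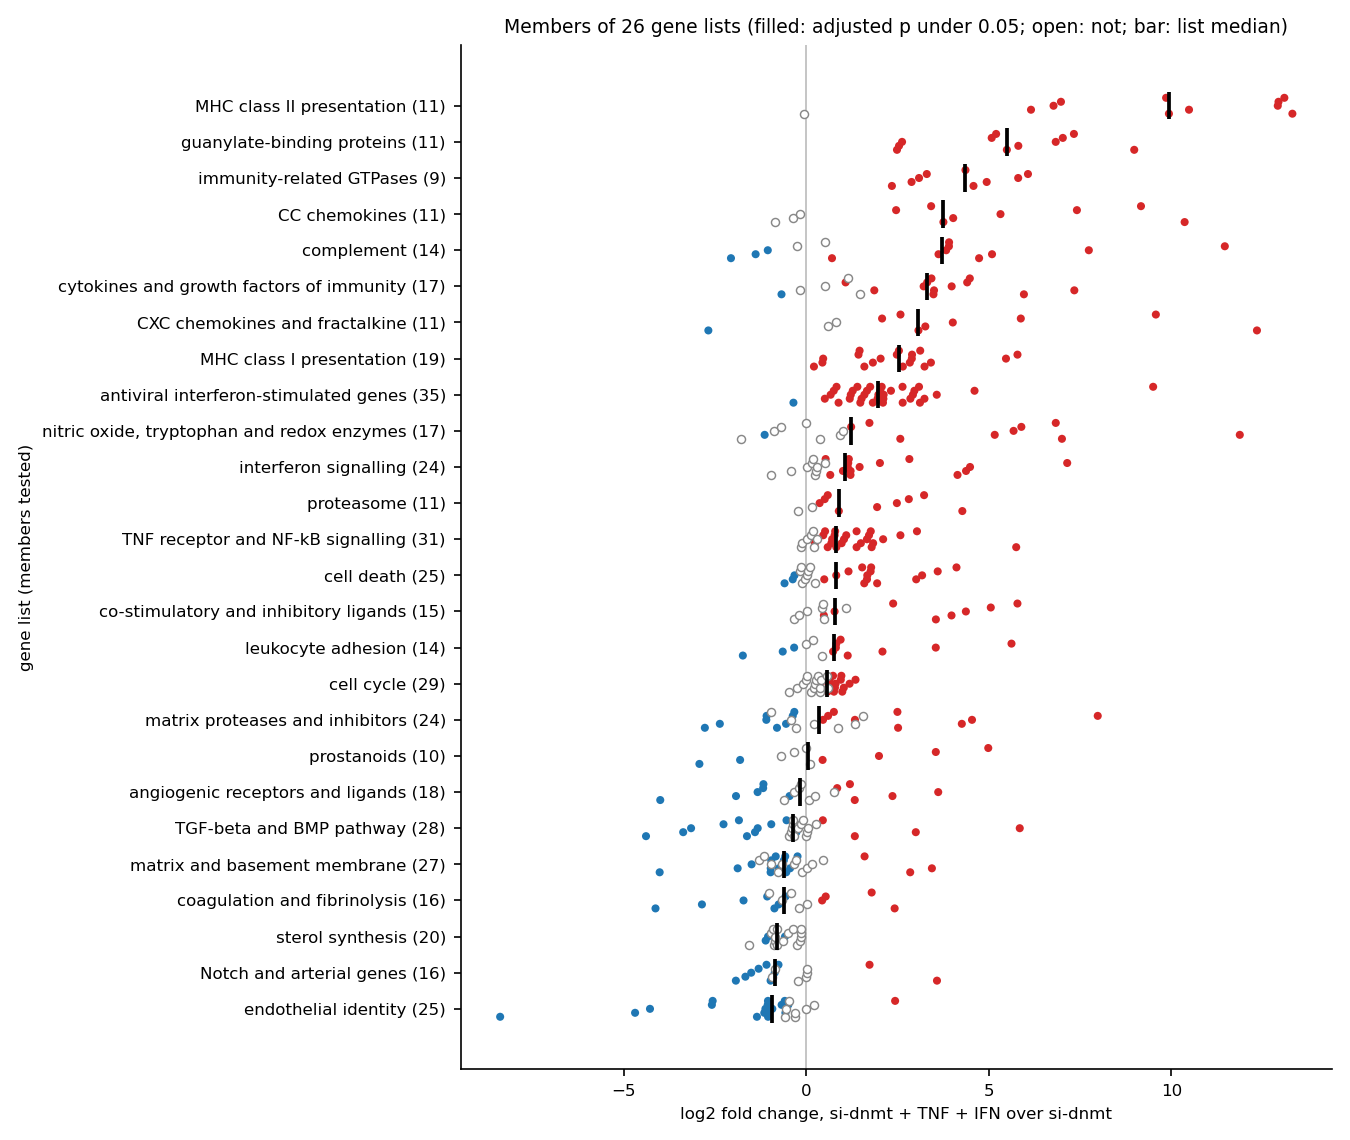
Log2 fold change (x axis) of each tested member of 26 gene lists (y axis, members tested in brackets) in si-dnmt + TNF + IFN over si-dnmt; red and blue points passed the test as higher and lower, open points did not, and black bars are list medians. The medians run from 9.93 for MHC class II presentation to -0.93 for endothelial identity.

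Interferon signalling genes rose in 15 of 24 members and none fell, with a median log2 fold change of 1.07 against 0.01 over all genes tested. In the fit with the replicate number as a block, 20 were called higher and 2 lower. Irf1, the transcription factor that relays IFNγ signals to secondary genes, was at 62.0, 56.0, 41.6 and 44.2 CPM in si-dnmt replicates 1 to 4 and at 950, 993, 829 and 824 CPM after the cytokines. Every treated library lay above every untreated one, a log2 fold change of 4.14 ± 0.16 (SE, adjusted p = 1.4e-17). Batf2, a transcription factor of the AP-1 type, had the highest fold of the list and rose from 0.97 ± 0.23 CPM to 137 ± 22 CPM (SD, n = 4). Socs1, the feedback inhibitor of JAK kinases, rose by 4.49 and Irf5 by 4.38 on the log2 scale, and Irf5 was higher with TNFα alone (22.2 CPM) than with IFNγ alone (4.12 CPM). Among the receptors, Ifngr1 rose from 40.5 to 63.9 CPM (log2 fold change 0.66), while Ifngr2 stood at 90.8 and 101 CPM and was not called.

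TNF receptor and NF-κB signalling genes rose in 24 of 31 members and none fell (median 0.83). Nfkbia, which encodes IκBα and whose window holds the κB match shown above, was at 120, 112, 97 and 99.6 CPM before and at 271, 310, 312 and 315 CPM after the cytokines, without overlap (log2 fold change 1.496 ± 0.222, adjusted p = 3.2e-06). Its level was 275 CPM with TNFα alone and 106 CPM with IFNγ alone, so the combined level lay near that of TNFα. Tnfaip3 (A20, a ubiquitin-editing inhibitor of NF-κB) was also higher with TNFα than with IFNγ, at 47.6, 236, 56.9 and 390 CPM with no cytokine, TNFα, IFNγ and both. Nfkbie (IκBε) rose by 2.58, and Tnip3, an A20 partner, went from 2 reads over the 4 si-dnmt libraries to 95 reads, a ratio of 70.1 (95% counting interval 18.9 to 587). The TNF receptor Tnfrsf1b rose from 21.1 to 36.2 CPM, and Tnfrsf1a, at 198 and 183 CPM, was not called.

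Chemokines included some of the largest rises. Of 11 tested members of the CXC list 8 rose and 1 fell, and of 11 tested CC chemokines 8 rose and none fell. Cxcl9, a ligand of the T-cell receptor CXCR3, was at 1.33, 2.35, 0.68 and 0.49 CPM before and at 8457, 8131, 4045 and 3888 CPM after the cytokines. The groups lay far apart (log2 fold change 12.34 ± 0.79, adjusted p = 4.5e-13), and within the treated group replicates 1 and 2 lay above replicates 3 and 4. Its level was 19.8 ± 14.0 CPM with TNFα alone and 451 ± 289 CPM with IFNγ alone (SD, n = 4). Cxcl10, a second CXCR3 ligand with the ISRE match shown above, was at 21.7, 33.3, 33.8 and 37.4 CPM before and at 1880, 2054, 1643 and 1840 CPM after (log2 fold change 5.88 ± 0.34, adjusted p = 4.2e-14). Cxcl11, the third ligand, rose from 0.40 ± 0.11 to 306 ± 128 CPM. Ackr3, a scavenging chemokine receptor, was the member that fell, from 3.08 to 10.1 CPM to 0.75 to 1.38 CPM (log2 fold change -2.68 ± 0.40).

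Among the CC chemokines, Ccl5, which attracts T cells and monocytes, rose from 5.30 to 7.05 CPM to 745 to 1326 CPM (log2 fold change 7.41 ± 0.45, adjusted p = 1.5e-13). The monocyte chemokine Ccl8 rose by 9.16 on the log2 scale. Ccl12 had 7 reads over the 4 si-dnmt libraries and 6666 over the treated ones, a ratio of 1400 (95% counting interval 681 to 3500). The neutrophil chemokine Cxcl3, at 6.93, 119, 6.39 and 112 CPM with no cytokine, TNFα, IFNγ and both, and Ccl20, at 1.03, 40.1, 0.47 and 11.2 CPM, were high with TNFα and not with IFNγ alone.

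**Figure D2:**
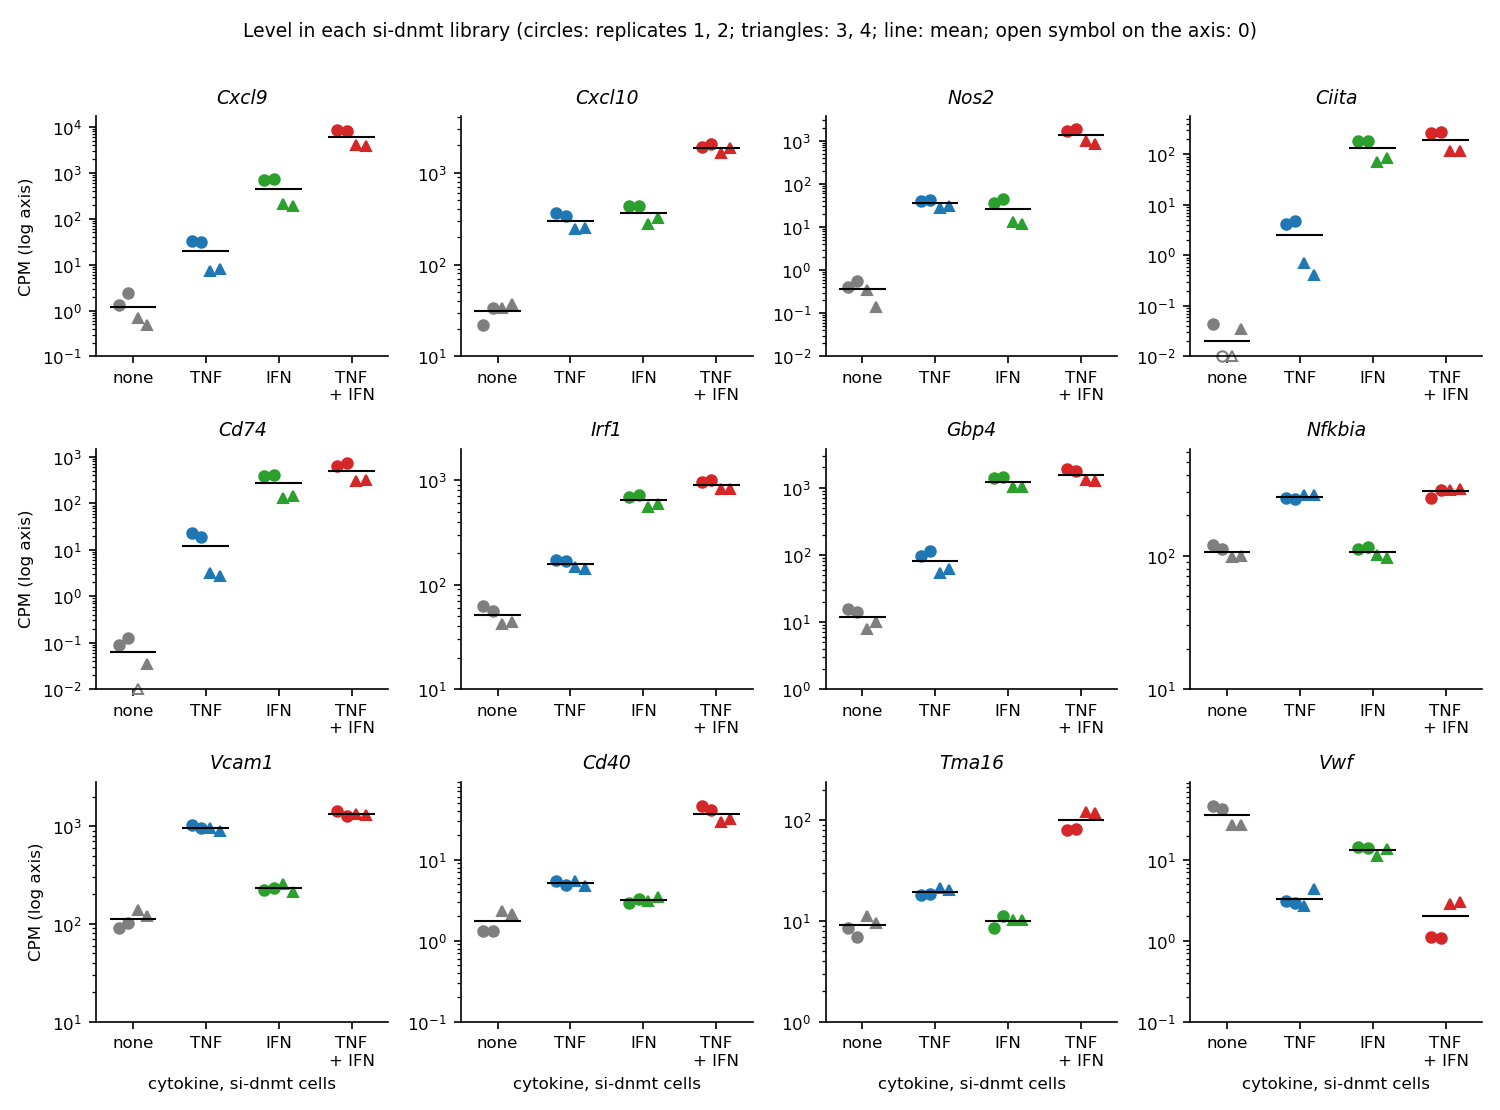
Level (y axis, CPM, log axis) of 12 genes in each of the 16 si-dnmt libraries by cytokine (x axis), with circles for replicates 1 and 2, triangles for replicates 3 and 4, and a line at the group mean. Cxcl9 and Nos2 with both cytokines lie above their levels with either alone. The means of Irf1, Ciita, Cd74 and Gbp4 with both are above those with IFNγ alone but closer to them than to those with TNFα alone. Nfkbia is near its TNFα level.

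Of 14 leukocyte adhesion genes 8 rose and 3 fell, the falls near the 18.9% of all genes called lower. Vcam1, the ligand of the integrin VLA-4 on lymphocytes, was at 91.4, 103, 140 and 120 CPM before and at 1426, 1273, 1319 and 1284 CPM after the cytokines (log2 fold change 3.55 ± 0.12, adjusted p = 7.9e-19). Icam1, the ligand of LFA-1 and carrier of the GAS match shown above, was at 440, 458, 358 and 317 CPM before and at 1684, 1774, 1598 and 1636 CPM after (log2 fold change 2.09 ± 0.22, adjusted p = 1.3e-08). Neither gene's groups overlapped. Sele (E-selectin) rose less, from 54.0 to 65.5 CPM to 93.5 to 129 CPM (log2 fold change 0.82 ± 0.24, adjusted p = 0.0077). Madcam1, the mucosal addressin, rose from 0.10 ± 0.08 to 5.09 ± 4.22 CPM, with 6.83 and 10.3 CPM in treated replicates 1 and 2 and 1.56 and 1.73 CPM in replicates 3 and 4. Jam2, a junctional adhesion molecule, fell by 1.74 on the log2 scale. Selp (P-selectin) was called lower over the 8 libraries (log2 fold change -0.64 ± 0.22, adjusted p = 0.019), but the sets differed: it went from 1006 and 1011 CPM to 376 and 341 CPM in replicates 1 and 2 and from 575 and 585 CPM to 668 and 650 CPM in replicates 3 and 4. Within replicates 3 and 4 alone its log2 fold change was 0.18 (adjusted p = 0.048), and leaving out any of replicates 1 and 2 of either group lost the call (log2 fold change -0.52 to -0.49, adjusted p = 0.080 to 0.089).

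Cytokine genes of the immune list rose in 12 of 17 members. Il27, a subunit of interleukin 27, rose from 0.07 to 0.24 CPM to 14.5 to 27.8 CPM (log2 fold change 7.34 ± 0.43, adjusted p = 8.2e-14). Il18 rose by 4.48 on the log2 scale, and Tnf itself from 0.05 ± 0.08 to 3.40 ± 1.64 CPM (SD, n = 4). Csf1, the macrophage growth factor, was at 1215 and 4426 CPM on average before and after. Il7, a lymphocyte survival factor, was called lower (log2 fold change -0.68, adjusted p = 0.032), but within replicates 1 and 2 alone it stood at -0.20 (adjusted p = 0.33). The Il7 call was also lost without si-dnmt replicate 3 or 4 or without treated replicate 1, 2 or 3, with adjusted p up to 0.14. Il33 (0.35 and 0.31 CPM) was not called. Il6 (11.3 and 31.1 CPM) was not called either (log2 fold change 1.47, adjusted p = 0.11), but it was called higher with the replicate number as a block (1.58, adjusted p = 0.0015).

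MHC class II presentation had the highest list median, 9.93 (9.85 with the member at 0 in every si-dnmt library set at its lower bound), with 10 of 11 tested members higher and none lower. Ciita, the master activator of class II genes, had 2 reads over the 4 si-dnmt libraries and 13293 over the 4 treated ones, a ratio of 9800 (95% counting interval 2710 to 81000). It was at 258, 283, 118 and 116 CPM in treated replicates 1 to 4, at 2.53 CPM on average with TNFα alone and at 131 CPM with IFNγ alone. The class II chains followed: H2-Aa had 1 read before and 10754 after (ratio 15900, interval 2850 to 627000), and H2-Ab1 had 1 and 9296 (ratio 13700, interval 2460 to 542000). Cd74, the invariant chain that guards the peptide groove, had 6 and 34311 reads (ratio 8440, interval 3880 to 23000). H2-DMb2, a chain of the peptide exchanger DM, had no read in any si-dnmt library and 3.11 to 8.997 CPM after, at least 48.3-fold higher against a floor of 3 reads per library. For each of these 5 genes treated replicates 1 and 2 lay above treated replicates 3 and 4, and all 4 lay above every si-dnmt library. The intervals cover counting error only.

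All 19 class I presentation genes rose, with a median of 2.54. H2-K1 and H2-D1, the classical class I heavy chains, rose by 2.54 and 1.82 on the log2 scale, and B2m, their light chain, by 1.43. Tap2, a subunit of the peptide transporter, was at 31.1, 29.5, 19.4 and 24.5 CPM before and at 274, 314, 256 and 270 CPM after (log2 fold change 3.41 ± 0.19, adjusted p = 2.1e-14). H2-Q6 and H2-Q7 rose by 5.78 and 5.47, with the reservation that these near-identical neighbours can share reads. In the proteasome list 9 of 11 members rose. The inducible subunits led it: Psmb9 went from 6.31 to 11.4 CPM to 167 to 194 CPM (log2 fold change 4.27 ± 0.20, adjusted p = 8.0e-16), Psmb8 rose by 3.23 and Psmb10 by 2.81. Their constitutive counterparts Psmb5, Psmb6 and Psmb7 rose by 0.37, 0.51 and 0.59.

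Interferon-inducible GTPases rose without exception: 11 of 11 guanylate-binding proteins (median 5.49) and 9 of 9 immunity-related GTPases (median 4.36), both families being known for attacking the vacuoles of intracellular pathogens. Gbp4 was at 15.8, 14.2, 7.82 and 10.1 CPM before and at 1887, 1784, 1297 and 1267 CPM after (log2 fold change 7.03 ± 0.31, adjusted p = 2.2e-16). Gbp10 rose by 7.33 and Gbp11 by 8.98. Gm12250 (Irgb10), with the ISRE and GAS matches shown above, rose from 5.05 to 8.38 CPM to 358 to 532 CPM (log2 fold change 6.07 ± 0.34, adjusted p = 2.8e-14). Tgtp2 rose by 4.94, although it can share reads with its close copy Tgtp1. With IFNγ alone Gbp4 already stood at 1221 CPM and Gm12250 at 437 CPM, against 81.6 and 61.4 CPM with TNFα alone.

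Of 35 antiviral interferon-stimulated genes 34 rose (median 1.98). Ubd, which encodes the ubiquitin-like modifier FAT10, rose from 2.49 to 5.01 CPM to 1922 to 3422 CPM (log2 fold change 9.50 ± 0.69, adjusted p = 6.6e-12), with 79.8 CPM for TNFα and 666 CPM for IFNγ alone. Mx1, a dynamin-like GTPase against RNA viruses, rose by 4.61 and Ifit2 by 3.57. Ifitm2 was the member called lower, from 40.0 to 31.4 CPM on average (log2 fold change -0.35 ± 0.11, adjusted p = 0.013). Its groups overlapped, and the call was lost without si-dnmt replicate 2 (adjusted p = 0.085) and within replicates 3 and 4 alone (adjusted p = 0.071).

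Ligands that stimulate or restrain T cells rose in 8 of 15 tested members and none fell. Cd274 (PD-L1) was at 23.6, 23.3, 21.5 and 22.3 CPM before and at 894, 886, 600 and 632 CPM after (log2 fold change 5.05 ± 0.28, adjusted p = 2.3e-14). Icosl, the ligand of ICOS, was at 0.04, 0.09, 0.48 and 0.10 CPM before and at 11.6, 11.8, 9.43 and 9.83 CPM after (log2 fold change 5.78 ± 0.46, adjusted p = 3.9e-11). Cd40, the receptor of T-cell CD40 ligand, was at 1.33, 1.33, 2.32 and 2.12 CPM before and at 46.2, 41.3, 29.4 and 31.7 CPM after (log2 fold change 4.37 ± 0.31, adjusted p = 3.9e-12). Tnfsf4 (OX40L) rose less, from 17.1 to 21.2 CPM to 29.7 to 37.98 CPM (log2 fold change 0.78 ± 0.21, adjusted p = 0.0032). None of these 4 had overlapping groups. Cd86 was at 0 in all 8 libraries, and Cd80, at 0.58 and 0.46 CPM on average, was not called.

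Cell death genes rose in 14 of 25 members and fell in 3. Zbp1, a nucleic acid sensor that engages RIPK3, was at 35.1, 38.2, 10.5 and 13 CPM before and at 439, 466, 385 and 382 CPM after (log2 fold change 4.11 ± 0.30, adjusted p = 8.5e-12). The death ligand Tnfsf10 (TRAIL) rose by 3.60 and Casp1, the inflammatory caspase, by 3.17. Mlkl, the executor of necroptosis, rose from 113 to 435 CPM on average, while Ripk3 (4.26 and 4.57 CPM) was not called. Bcl2 fell from 12.4 to 15.5 CPM to 8.33 to 10.2 CPM, and Tnfrsf10b, a TRAIL receptor, from 248.5 to 192.4 CPM on average (log2 fold change -0.37, adjusted p = 0.015, and -0.32 with adjusted p = 0.051 without si-dnmt replicate 1).

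Enzymes of nitric oxide, tryptophan and redox metabolism rose in 9 of 17 members, and 1 fell, against 12 and 4 with the replicate number as a block. Nos2, the inducible nitric oxide synthase, was at 0.40, 0.56, 0.34 and 0.14 CPM before and at 1652, 1841, 976 and 848 CPM after (log2 fold change 11.87 ± 0.77, adjusted p = 5.7e-13). It stood at 35.2 ± 6.6 CPM with TNFα alone and 26.2 ± 16.2 CPM with IFNγ alone. Nos3, the constitutive endothelial synthase, was the member that fell, from 155 to 195 CPM to 73.8 to 92.8 CPM (log2 fold change -1.14 ± 0.13, adjusted p = 2.1e-08). Ido1, which degrades tryptophan, rose by 7.001 and followed IFNγ, with 1.13 CPM for TNFα, 98.8 CPM for IFNγ and 125 CPM for both. Acod1, which makes itaconate, rose by 6.83. Of 14 complement genes 9 rose and 3 fell. Serping1, the C1 inhibitor, had 4 reads before and 8537 after (ratio 3150, 95% counting interval 1230 to 11600), C1s1, a C1 protease, rose by 7.74 and C4b by 5.09. Cd55 and Cd59a, which shield host cells from complement, were among those that fell, Cd59a from 36.7 to 42.0 CPM to 13.2 to 17.2 CPM.

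Coagulation and fibrinolysis genes moved in both directions, 4 of 16 higher, near the 21.3% of all genes called higher, and 7 lower, against 18.9%. Vwf, the platelet-binding von Willebrand factor, went from 46.5, 42.2, 26.8 and 27.0 CPM to 1.11, 1.08, 2.83 and 3.01 CPM (log2 fold change -4.13 ± 0.31, adjusted p = 1.4e-11), without overlap. Plat (tissue plasminogen activator) fell by 2.85 on the log2 scale and Thbd (thrombomodulin) by 0.87. F3 (tissue factor) was called higher (log2 fold change 1.79 ± 0.62, adjusted p = 0.021), a call lost without si-dnmt replicate 1 or 2 or treated replicate 3 or 4 (adjusted p up to 0.070). Among 10 prostanoid genes Ptges, Ptgir, Tbxas1 and Ptges2 rose, Ptgs1 and Ptger4 fell, and Ptgs2 (883 and 887 CPM) was not called. Within replicates 1 and 2 alone Ptges2 was not called (log2 fold change 0.33, adjusted p = 0.10).

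Endothelial identity genes fell in 17 of 25 members, and 1 rose, with a median log2 fold change of -0.93. Cdh5 was at 2723, 2609, 1604 and 1536 CPM before and at 1095, 1287, 914 and 846 CPM after (log2 fold change -1.03 ± 0.23, adjusted p = 0.00069). Pecam1 was at 1829, 1669, 1300 and 1298 CPM before and at 736, 873, 679 and 646 CPM after (log2 fold change -1.05 ± 0.17, adjusted p = 1.0e-05). Neither pair of groups overlapped. Aqp1, the water channel of microvascular endothelium, fell furthest in this list, from 56.7, 52.9, 11.2 and 19.8 CPM to 0.12, 0.18, 0.06 and 0.05 CPM (edgeR adjusted p = 9.8e-10). Its reads went from 3410 to 7, a ratio of 330 (95% counting interval 160 to 822). Sox17, a transcription factor of arterial endothelium, fell by 4.68. Ly6c1 was the member that rose, from 35.3 to 67.8 CPM to 181 to 400 CPM (log2 fold change 2.43 ± 0.34), and it stood at 491 CPM with IFNγ alone and 17.8 CPM with TNFα alone. Plvap (289 and 288 CPM) and Klf2 (15.8 and 12.8 CPM) were not called. In bulk RNA, fewer cells that express a gene and less of its RNA per cell cannot be told apart.

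**Figure D3:**
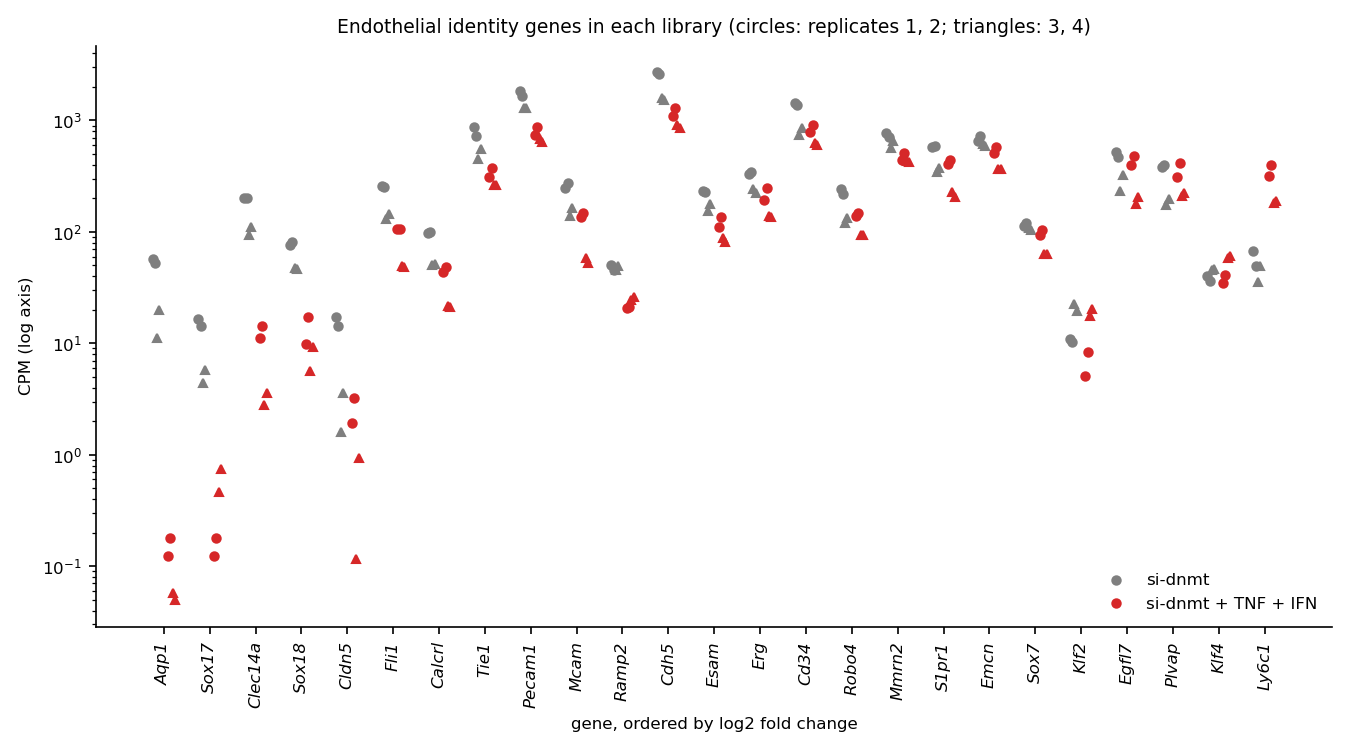
Level (y axis, CPM, log axis) of the 25 endothelial identity genes (x axis, ordered by log2 fold change) in the 4 si-dnmt libraries (grey) and the 4 si-dnmt + TNF + IFN libraries (red), with circles for replicates 1 and 2 and triangles for replicates 3 and 4. From Aqp1 to Emcn most treated libraries lie below the untreated ones of the same set, and Ly6c1 at the right lies above.

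Genes of vessel growth and patterning also fell more often than they rose in the Notch and the TGF-β and BMP lists. Of 18 angiogenic genes 5 rose and 6 fell, against 21.3% and 18.9% of all genes. Vegfc, the lymphangiogenic ligand, rose from 1.68 ± 0.93 to 20.9 ± 1.0 CPM and Pdgfa by 2.36 on the log2 scale. Esm1, a tip-cell proteoglycan, fell by 4.00, the angiopoietin receptor Tek by 1.92, and Kdr (VEGFR2) from 516 to 228 CPM on average. Of 16 Notch and arterial genes 8 fell and 2 rose. Those that fell included Lfng, which modifies Notch receptors (log2 fold change -1.93), and Nr2f2, a venous transcription factor (-1.67), while the ligand Dll1 rose by 1.73. Of 28 TGF-β and BMP genes 11 fell and 4 rose, against 18.9% and 21.3% of all genes. Bmp2 rose by 5.85 and the latent TGF-β binding protein Ltbp1 by 3.00. The activin subunit Inhbb fell from 33.9, 33.9, 4.64 and 6.71 CPM to 1.48, 1.14, 0.81 and 0.40 CPM (log2 fold change -4.39 ± 1.17, adjusted p = 0.0033). The receptor-regulated Smad9 fell by 3.15.

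Matrix and basement membrane genes fell in 13 of 27 members and rose in 3. Col3a1, a fibrillar collagen, went from 13.3 to 27.4 CPM to 1.02 to 1.68 CPM (log2 fold change -4.01 ± 0.36, adjusted p = 4.3e-10), and Tnc (tenascin C) fell by 1.88. Col6a1 and Lama3 were among those that rose, by 3.44 and 2.85. Of 24 matrix proteases and inhibitors 9 rose and 8 fell. The serine protease inhibitor Serpina3f rose by 7.98, the collagenase Mmp13 by 4.26 and Mmp9 (gelatinase B) by 4.54, while Mmp15 fell by 2.77 and Adamts1 by 2.37. Cell cycle genes rose in 14 of 29 members and none fell, by at most 1.35 on the log2 scale for Ccne1 (cyclin E1), from 12.8 ± 1.9 to 32.7 ± 1.9 CPM. Of 20 sterol synthesis genes 4 fell and none rose, near the 18.9% of all genes called lower. Sqle, the squalene epoxidase, fell by 1.04. With the replicate number as a block 15 of the 20 were called lower, against 25% of all genes in that fit. Within replicates 1 and 2 and replicates 3 and 4 alone 16 and 13 were, against 22.1% and 21.9% of all genes.

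Several of the largest changes lay outside these groups. Apol6, an apolipoprotein L family gene, rose from 0.14 ± 0.05 to 116 ± 31 CPM (log2 fold change 9.59 ± 0.31, adjusted p = 7.9e-19). Npr3, the clearance receptor of natriuretic peptides, went from 57.7, 66.8, 39.9 and 40.7 CPM to 2.52, 1.44, 1.504 and 1.68 CPM (log2 fold change -4.84 ± 0.50, adjusted p = 5.5e-09). Bmx, a tyrosine kinase of endothelium, fell by 4.84 and the protease Tmprss11e by 5.33. Scn3a, a sodium channel subunit, fell from 35.6 and 27.8 CPM in replicates 1 and 2 and from 1.30 and 2.33 CPM in replicates 3 and 4 to 0.10 to 0.18 CPM. The Scn3a reads fell from 1554 to 10, a ratio of 105 (95% counting interval 57.1 to 220). Chil5 and Masp1 likewise started from 13.6 to 21.0 CPM in replicates 1 and 2 and from 1.60 to 4.00 CPM in replicates 3 and 4, and ended at 0.05 to 0.37 CPM.

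Whether the response was particular to Dnmt1-silenced cells was examined against that of si-control cells. The difference between the 2 responses was called for 81 of 15254 genes (0.531%), 24 higher (0.157%) and 57 lower (0.374%) in si-dnmt cells. With the replicate number as a block, 246 were higher and 392 lower. Of the 1356 genes called at least 2-fold higher in si-dnmt cells, 1193 were also called higher in si-control cells, 7 had a larger and 26 a smaller response in si-dnmt cells, and the median log2 fold changes were 1.90 and 1.96. Of the 1066 genes called at least 2-fold lower, 920 were also called lower in si-control cells, and the medians were -1.61 and -1.61. Both sets of genes were chosen by their si-dnmt response. Their medians and shared calls therefore describe these genes and do not test whether the 2 responses are alike.

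Several interferon-inducible genes had a smaller response in si-dnmt cells, where their mean levels before the cytokines were above those of si-control cells. Zbp1 rose from 3.03 to 400 CPM in si-control cells and from 24.2 to 418 CPM in si-dnmt cells, a difference of -2.93 ± 0.41 on the log2 scale (adjusted p = 3.0e-04). Gm12250 rose from 0.99 to 458 CPM in si-control cells and from 6.70 to 449 CPM in si-dnmt cells (difference -2.75, adjusted p = 0.0020). Psmb9 rose from 3.22 to 193 CPM against 9.18 to 177 CPM (difference -1.62, adjusted p = 0.0020), and Vcam1 from 46.9 to 985 CPM against 113 to 1326 CPM (difference -0.85, adjusted p = 0.0064). The treated levels of Mmp13 differed, at 23.8 to 64.9 CPM in treated si-control and 5.03 to 8.28 CPM in treated si-dnmt libraries (difference of responses -3.70 ± 0.59, adjusted p = 0.0019). Slamf8, a leukocyte surface receptor, was at 0 in all 4 si-control libraries, so its si-control rise to 29.5 to 35.4 CPM was at least 230-fold. In si-dnmt cells Slamf8 rose from 0.03 to 0.36 CPM to 21.6 to 38.4 CPM. The fitted size of its difference depends on the libraries at 0 and is no bound. The call (adjusted p = 0.026) was lost in 6 of 16 fits that left out a library (si-control replicates 1 to 4, si-dnmt replicates 1 and 2), with adjusted p up to 0.064.

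Tma16, a translation machinery associated gene, had the smallest adjusted p among the genes with a larger response. It was at 11.9, 10.9, 10.7 and 10.4 CPM in si-control libraries and at 33.4, 33.9, 42.0 and 38.1 CPM after the cytokines. In si-dnmt cells it was at 8.59, 6.93, 11.2 and 9.63 CPM and rose to 81.0, 81.9, 122 and 118 CPM. The groups without cytokine overlapped, the treated groups did not, and the difference was 1.71 ± 0.22 on the log2 scale (adjusted p = 6.7e-05). Col3a1 fell less in si-dnmt cells (20.7 to 1.27 CPM) than in si-control cells (60.1 to 0.43 CPM, difference 3.14 ± 0.56, adjusted p = 0.0057). Ace (angiotensin-converting enzyme) went from 59.7 to 11.9 CPM in si-control cells and from 34.3 to 24.1 CPM in si-dnmt cells (difference 1.82, adjusted p = 0.0079). Its si-dnmt change (log2 fold change -0.51, adjusted p = 0.093) was called lower within either replicate set alone (-0.58 and -0.40, adjusted p = 2.8e-04 and 0.0037). The differences of Zbp1, Gm12250, Psmb9, Vcam1, Mmp13, Tma16, Col3a1 and Ace remained called in each of 16 fits that left out a library, and that of Vcam1 had an adjusted p of 0.051 when only the libraries of the groups compared were fitted. For the co-stimulatory ligands Icosl, Tnfsf4 and Cd40 the difference was 0.89, 0.07 and 0.65 on the log2 scale (adjusted p = 0.96, 0.98 and 0.73), for Cxcl9 and Cxcl10 it was -3.27 and -1.30 (adjusted p = 0.40 and 0.16), and none of these was called. Cxcl9 had 6 reads over the 4 si-control libraries without cytokine, at most 3 in any one, so the size of its difference is poorly known. Its mean level rose from 0.07 to 3818 CPM in si-control cells and from 1.21 to 6131 CPM in si-dnmt cells. That of Cxcl10 rose from 12.1 to 1748 CPM and from 31.6 to 1854 CPM. Both means were thus higher in si-dnmt cells before and after the cytokines. With the replicate number as a block, the fold responses of Cxcl9 and Cxcl10 were called smaller in si-dnmt cells (-3.38 and -1.26, adjusted p = 0.014 and 0.038) and those of the co-stimulatory ligands were not. That fit also called smaller responses of Ubd (-3.75, adjusted p = 1.4e-05), H2-Q6 (-2.93, adjusted p = 3.2e-06), Irf1 (-0.78, adjusted p = 2.2e-04) and Cd274 (-1.06, adjusted p = 0.0062), among others. For Ptgs1, which fell with the cytokines, the block fit called a smaller fall in si-dnmt cells (difference 1.25, adjusted p = 0.032). The main fit called none of these differences.

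**Figure D4:**
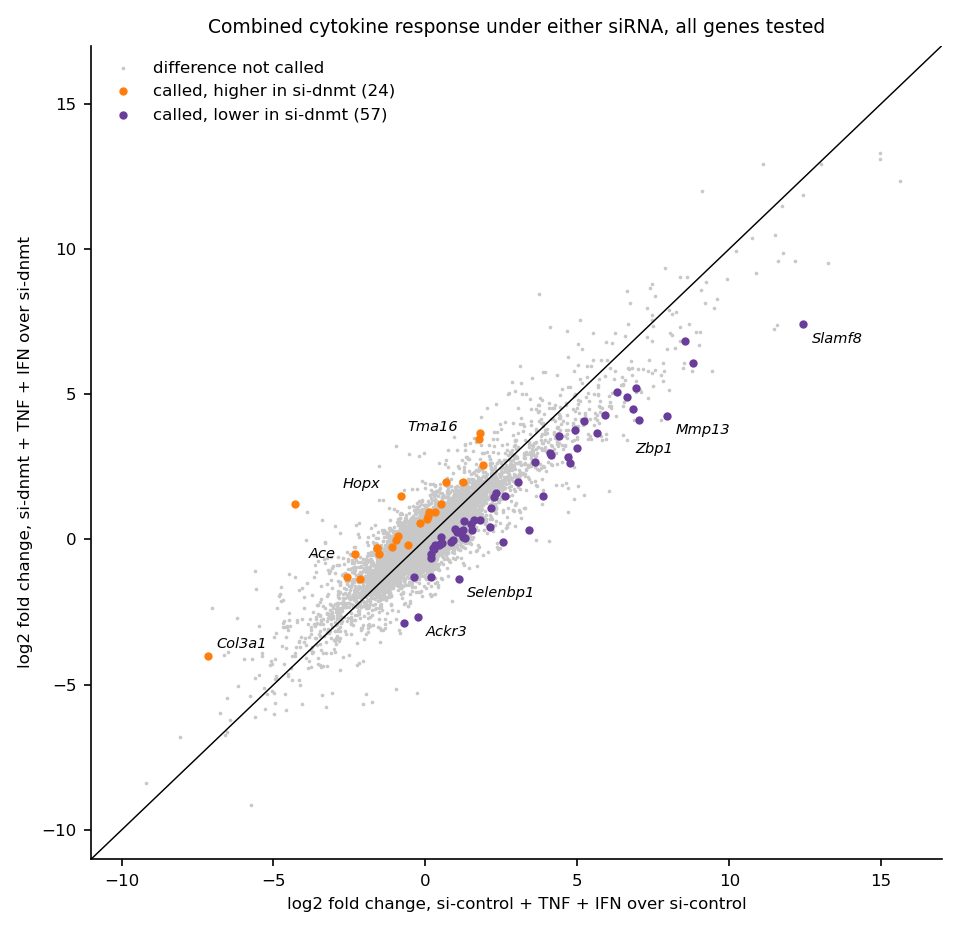
Log2 fold change with both cytokines in si-control cells (x axis) and in si-dnmt cells (y axis) for the 15254 genes tested, with the line of equal response; coloured points are the 81 genes whose difference was called. Slamf8, Mmp13 and Zbp1 lie below the line and Tma16 and Col3a1 above it. The x value of Slamf8 was fitted against si-control libraries that are all at 0.

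The combined response was also set against the sum of the responses to TNFα and IFNγ given alone in si-dnmt cells, on the log2 scale, where no departure means that the single folds multiply. The 3 responses share the 4 si-dnmt libraries without cytokine. A departure was called for 54 genes (0.354%), 27 above and 27 below the sum (0.177% each), and for 119 above and 158 below with the replicate number as a block. Tma16 lay above it: its level was 9.09, 19.6, 10.1 and 100 CPM on average with no cytokine, TNFα, IFNγ and both (departure 2.21 ± 0.22, adjusted p = 1.1e-06). Cd40 was at 1.78, 5.11, 3.21 and 37.2 CPM (departure 2.02 ± 0.40, adjusted p = 0.014), a call lost without si-dnmt replicate 3 (departure 1.86, adjusted p = 0.056). Mxd1, a MYC antagonist, had a departure of 2.41 (adjusted p = 0.019), which was lost in 6 of 16 fits that left out a library (si-dnmt replicates 1 and 2, si-dnmt + TNF replicates 1 and 2, si-dnmt + IFN replicates 3 and 4; adjusted p up to 0.063).

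The genes named below the sum had higher mean levels with either cytokine alone than with none. Cd74 was at 0.06, 11.96, 269 and 499 CPM on average, a departure of -6.66 ± 1.26 (adjusted p = 0.0081). Gm12250 was at 6.70, 61.4, 437 and 449 CPM (departure -3.16 ± 0.40, adjusted p = 3.9e-05), Gbp4 at 12, 81.6, 1221 and 1559 CPM (-2.42, adjusted p = 2.1e-04) and Batf2 at 0.97, 7.83, 86.5 and 137 CPM (-2.35, adjusted p = 2.1e-04). Irf1 was at 50.9, 157, 638 and 899 CPM (departure -1.13 ± 0.20, adjusted p = 0.0037) and Psmb9 at 9.18, 44.1, 122 and 177 CPM (-1.73, adjusted p = 2.7e-04). These 6 calls, and that of Tma16, held in all 16 fits that left out a library. For Cxcl9, Cxcl10, Nos2 and Vcam1 the departures were -0.30, -0.90, -0.96 and -0.55 (adjusted p = 1.0, 0.67, 1.0 and 0.17) and were not called. With the replicate number as a block the departure of Vcam1 was called (-0.56, adjusted p = 0.040) and those of Cxcl9, Cxcl10 and Nos2 were not. That fit also called Ciita (-5.93, adjusted p = 2.5e-06) and Ubd (-2.24, adjusted p = 1.5e-05) below the sum and Pdgfa above it (1.32, adjusted p = 0.026), among others.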

How the data were processed

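RNA-seq counts of 32 libraries in 8 groups were analysed, 8 of them in the combined response. The authors deposited raw read counts per gene, one table per library with 54532 gene identifiers. The submitters' processing notes name cutadapt 4.9, FastQC 0.12.1, MultiQC 1.27.1, featureCounts and DESeq2; no source used here gives the aligner, genome build or strand setting, and reads of overlapping or near-identical genes may be split arbitrarily.

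edgeR 4.0.16 (R 4.3.3, limma 3.58.1) was fitted to all 32 libraries with 8 group means, TMM factors and a minimum count of 10 in its expression filter. Quasi-likelihood F tests were adjusted by Benjamini-Hochberg over 15254 genes, with a threshold of 0.05. Fold changes are log2 with SE, and CPM uses effective library sizes. The difference of responses and the departure from the sum were contrasts of the same fit. The scripts were tested on simulated data.

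Named genes were the targeted gene, the largest called changes (mean of at least 5 CPM), the leading members of each list (mean of at least 1 CPM) and the leading differences and departures; further members, such as receptors, were named after their values were seen. The members and gene lists were chosen with earlier results of these data known. Ratios for genes with at most 3 reads per library have exact 95% counting intervals, which cover counting error only.

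Same-numbered libraries deviated together (r = 0.351 to 0.467, lowest over all group pairs 0.297). Libraries of different numbers within the sets 1, 2 and 3, 4 did so as well (0.416 to 0.453), while those of different sets had r of -0.454 to -0.365. The deviations thus followed the 2 sets, and no closer pairing by number was seen. The main fit held no term for the sets or numbers, so its p-values ignore this structure, and the replicate number entered as a block only in an alternative fit. Alternatives were RLE factors, no filter, DESeq2 1.42.0, a replicate block, only the libraries compared, each replicate set alone and leaving out each library. A few genes of the lists are counted in them but not reported by name here.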

Additional observations from a re-analysis of the deposited data

Results flagged for a closer look

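In 10 of 271 groups of 4 libraries examined, one library stood apart from the other 3, where chance alone sets apart about 1 in 20. Before the cytokines these were Icosl in si-dnmt replicate 3 (0.478 CPM), Il27 in replicate 3 (0.239 CPM), Ccl5 in replicate 4 (7.05 CPM) and Sele in replicate 1, which was lowest at 54.0 CPM. After the cytokines Nfkbia in replicate 1 (271 CPM) and Il18 in replicate 3 (5.78 CPM) were lowest. Chil5 (0.369 CPM) and Casp1 (14.0 CPM) in replicate 1, Ifitm2 in replicate 2 (35.7 CPM) and Tmprss11e in replicate 4 (0.741 CPM) were highest.

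The response differed between si-dnmt and si-control cells for 24 of the named and listed genes reported here (edgeR quasi-likelihood test of the difference). Over all genes tested the difference was called for 81 of 15254 (0.531%). Some genes were named for their large called difference, so the count of 24 is partly set by that choice. The si-dnmt response, minus that of si-control on the log2 scale, was lower for Mmp13 (-3.70), Zbp1 (-2.93), Gm12250 (-2.75), Selenbp1 (-2.44) and Ackr3 (-2.43). Among interferon-induced antiviral and ubiquitin-like pathway genes it was lower for Oas3 (-2.12), Oas2 (-1.85), Oasl2 (-1.13), Herc6 (-1.12) and Ube2l6 (-0.735). It was also lower for Gbp5 (-1.72), Gbp8 (-1.70), Gbp2 (-1.23), Psmb9 (-1.62), Tap1 (-1.26), Vcam1 (-0.847) and the Notch ligand Jag1 (-0.934). For Slamf8 the fitted difference was -5.01, but its si-control libraries without cytokine are all at 0, so that value depends on the fit and is no measure of size. The si-dnmt response was higher for Ndufa4 (1.31), Tma16 (1.71), Ace (1.82), Cep57l1 (1.85), Hopx (2.31) and Col3a1 (3.14). Among those tested without one library, the calls of Ackr3, Cep57l1, Hopx, Selenbp1 and Slamf8 were lost in 4 to 13 of 16 fits, with adjusted p up to 0.109.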

How the results depend on the processing

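Counts of the combined response in si-dnmt cells stayed within 1.5 times under each alternative run, and without one library they ranged from 2890 to 3116 higher, 2551 to 2681 lower, 1250 to 1400 at least 2-fold higher and 978 to 1059 at least 2-fold lower. Of 138 genes named by rule and called, 130 kept their call and direction under every alternative. The exceptions were Pdpn, Selp, Il7, Cldn7, Ifitm2, Tnfrsf10b, F3 and Krt18. Further members named in the report are outside this count, among them Ptges2, whose call was lost within replicates 1 and 2 alone. Selp reversed to a log2 fold change of 0.18 within replicates 3 and 4 alone. The replicate block changed no call of the combined response among the 141 genes named by rule, while among further members named in the report it added Il6 (1.58), Mmrn1 (-2.62) and Pdgfrb (-0.93). It lost none of the differences and departures called for those genes. The smaller contrasts depended on the fit. For the difference from si-control cells, genes called higher and lower numbered 59 and 120 with DESeq2, 246 and 392 with the replicate block, 11 and 25 with only the libraries compared, 245 and 510 within replicates 1 and 2, and 763 and 1030 within replicates 3 and 4, and 13 were higher with no filter. Leaving out one library gave 14 to 29 higher and 26 to 69 lower. For the departure from the sum, the counts above and below were 51 and 45 with DESeq2, 119 and 158 with the replicate block, 44 and 76 with only the libraries compared, 304 and 435 within replicates 1 and 2, and 136 and 181 within replicates 3 and 4, and 17 lay above with no filter. Leaving out one library gave 16 to 28 above and 17 to 30 below. The causes were not tested. Genes with few reads before the cytokines, such as the class II genes, have folds known only within wide counting intervals.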
